A study of Nematostella vectensis with 8 samples.

Results

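The genes described here are those whose transcripts were much less abundant after NvfoxE-like knockdown and whose nearest identifiers held no other gene that fell. They were chosen from the measured values. Estimated counts were summed per gene, and the pair ratio was the log2 of the shRNA over the control count of the same replicate number, each taken relative to its library total after 2 counts were added. A gene counted as falling if it averaged at least 2 CPM (counts scaled to a common library total) in the control libraries and was at least 1.5-fold lower in all 4 pairs, a pair ratio of about -0.58 or less. Members were falling genes with a mean pair ratio of -1.5 or less and no other falling gene within 5 identifier numbers. NvfoxE-like itself, which met these limits, was left out, as was the capsule gene mcol1, whose mean ratio of -0.93 did not. The rule gave 52 members of 24520 genes in the files, 15445 of which reached the control minimum.

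Starlet sea anemone (Nematostella vectensis) embryos of wildtype genotype were injected either with shRNA against NvfoxE-like, a combination of 2 hairpins, or with a scramble RNA as the control. Whole gastrulae were collected 28 hours after fertilization at 24 °C, in 4 pools of about 1000 embryos per group. Each pool gave 1 library of polyadenylated RNA. The library names of replicates 3 and 4 of both groups begin with LA20 and those of replicates 1 and 2 with LA19, although the batch label is LA19 for all 8 libraries, and the labels do not say what the prefix stands for. Whether the replicates came from separate spawnings is not stated, so the spread between libraries may be partly technical.

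Cnidocytes are the stinging cells of cnidarians. Each builds a capsule from minicollagens and other matrix proteins, loads it with a coiled tubule and often with toxins, and fires it on contact. Forkhead proteins such as NvfoxE-like are transcription factors that bind DNA through a winged-helix domain, and in sea anemone embryos cnidocytes arise scattered through the ectoderm from neural progenitors. In RNA from whole embryos, fewer cells of a type and less RNA per cell cannot be told apart.

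The libraries held 18656270 to 26073612 estimated counts, so 3 counts correspond to 0.115 to 0.161 CPM. This limit covers counting error only. NvfoxE-like had 10.5, 6.22, 12.7 and 16.8 CPM in the shRNA libraries of replicates 1 to 4, against 29.1, 13.7, 48.8 and 49.5 CPM in the control libraries, with pair ratios of -1.46, -1.12, -1.93 and -1.56. Its groups overlapped, because control 2 lay below shRNA 4, but each shRNA library was below its own control. Of the 14 cnidocyte marker genes that are no members, 11 reached the control minimum. At least 1.5-fold lower in all 4 pairs were 3 of the 14, namely mcol1, Ncol and NEP3. NEP3 lay under the control minimum, at 0.39 CPM in controls. Of the 14, 8 were lower in all pairs and 0 were higher in all pairs, and the median of their mean ratios was -0.52. Their summed level was 1643, 1705, 878 and 1465 CPM in shRNA libraries 1 to 4, against 1927, 1757, 1397 and 1848 CPM in control libraries 1 to 4, so it was below its own control in each pair. The part of these markers in the members' values was not tested.

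Falling genes were few: 161 of the 15445 genes at the control minimum fell in all 4 pairs, 1.04%, and 76 of them had a mean ratio of -1.5 or less, 0.492%. Of the 161, 50 had another falling gene within 5 numbers and 111 had none. Of those 111, 58 stayed above -1.5, and removing NvfoxE-like left the 52 members. Because these limits were set on the same ratios, the depth of the members' falls is a description of the choice.

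The mean ratios of the members ran from -4.16 to -1.5, with a median of -2.14, beside a median of 0.04 over all genes at the control minimum. Of the 52 members, 8 had a mean of -3 or less, 22 lay between -3 and -2, and 22 between -2 and -1.5. In 44 members every pair ratio was -1 or less. The median member held 21.0% of its control level in pair 1, 20.4% in pair 2, 20.9% in pair 3 and 24.2% in pair 4. Summed over the members, the level was 309, 308, 148 and 322 CPM in shRNA libraries 1 to 4, against 1138, 1285, 718 and 1139 CPM in control libraries 1 to 4. The sums of the 2 groups did not overlap, and both groups had their lowest sum in replicate 3.

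**Figure D1:**
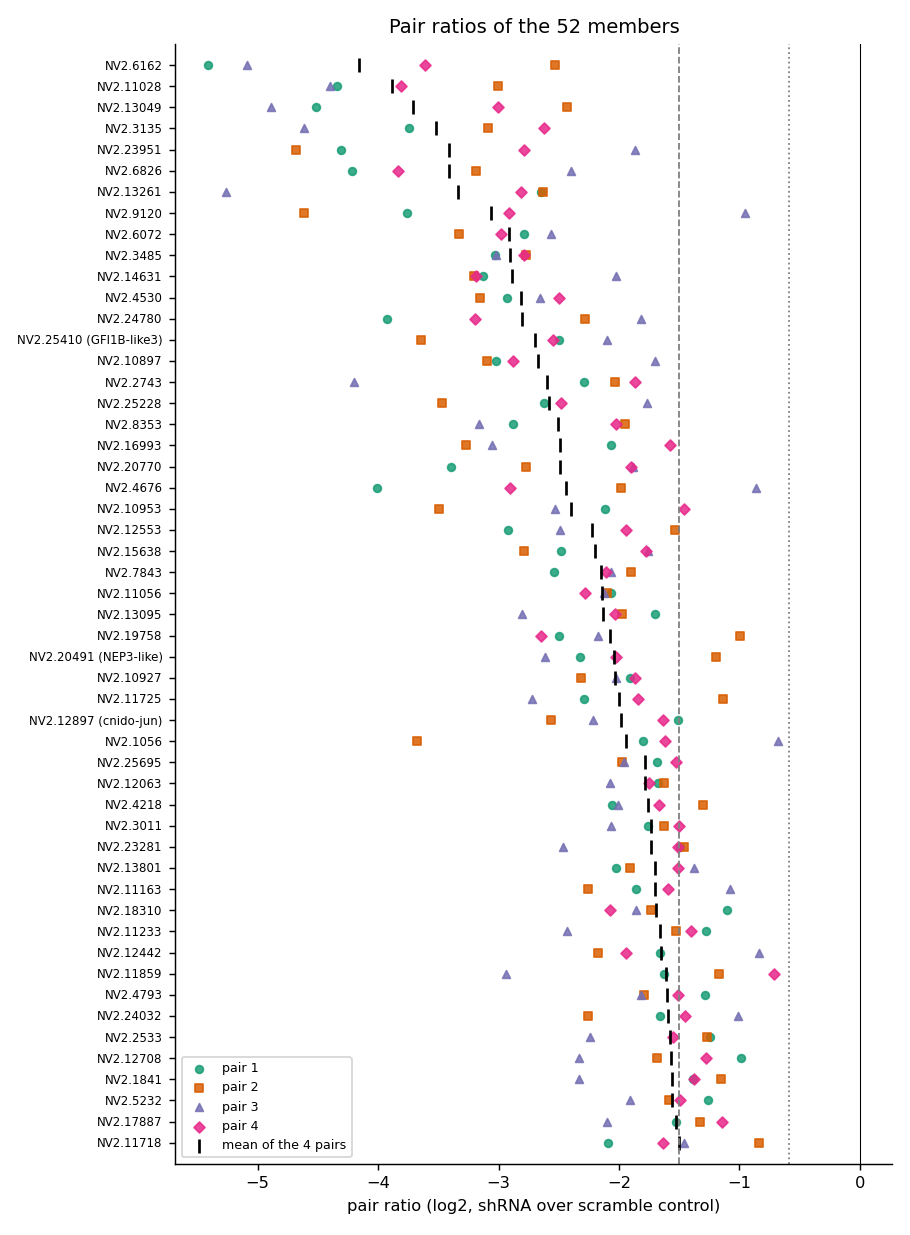
Pair ratios of the 52 members (x axis, log2 of shRNA over scramble control, 1 row per gene sorted by mean ratio), with a symbol for each of the 4 pairs and a black tick for their mean. The dotted line marks the 1.5-fold limit and the dashed line -1.5. The mean runs from -1.5 at the bottom to -4.16 at the top, and the symbols spread most in genes such as NV2.9120 and least in NV2.11056.

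Taken gene by gene, shRNA and control libraries did not overlap in 34 of the 52 members and overlapped in 18. Over all genes at the control minimum, 0.738% had every shRNA library below every control. Since the rule used these libraries, nothing is read from that difference. A test across all genes without pairing called 0 of 19002 genes lower and 0 higher, hence 0 members (edgeR quasi-likelihood F test, smallest adjusted p = 0.22), while 231 genes were lower and 75 higher at an unadjusted p under 0.05. With the replicate number as a block it called 203 genes lower, 1.07%, and 40 higher, 0.211%, and 49 of the 203 were members. DESeq2 without the block called 48 genes lower, 0.253%, and 8 higher, 0.0421%, and 32 of the 48 were members. With the block it called 270 lower, 1.42%, and 66 higher, 0.347%, with all 52 members among the 270. These counts are given for completeness, because the contrast is the one that chose the genes.

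Only 3 members carry a name in the study's collection of published cnidocyte genes, and they are a pair of transcription factor genes and a toxin gene. GFI1B-like3 (NV2.25410) is a GFI1B-like gene, named after a zinc-finger repressor that acts in vertebrate blood cells. It had 2.40, 0.590, 1.96 and 3.20 CPM in shRNA libraries 1 to 4, against 13.9, 8.61, 8.64 and 19.2 CPM in the controls. All 4 shRNA libraries lay below the lowest control. The gene averaged 2.04 ± 1.09 CPM with the shRNA, against 12.6 ± 5.08 CPM with the scramble RNA (mean ± SD of 4 libraries), and its mean pair ratio was -2.70. Its sums were whole, within 0.01 of a count, in all 8 libraries, so there was no sign of reads divided with another gene.

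cnido-jun (NV2.12897) belongs to the Jun family of leucine zipper factors, which pair with Fos proteins in the AP-1 complex. Its level was 4.45, 1.18, 3.30 and 6.84 CPM in shRNA libraries 1 to 4, against 12.8, 7.54, 15.6 and 21.4 CPM in the controls. The groups did not overlap, although shRNA 4 came close to control 2, and the mean ratio was -1.98. The collection also holds cnido-fos (NV2.19749), which is no member: its mean ratio was -1.01, and in pair 3 its ratio was 0.53.

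NEP3-like (NV2.20491) is listed as a toxin gene, a relative of the nematocyte toxin NEP3. It was the most abundant named member, with 16.1, 13.0, 10.2 and 28.0 CPM in shRNA libraries 1 to 4, against 80.9, 29.8, 63.1 and 115 CPM in the controls. The groups came close at shRNA 4 and control 2 without overlapping, and the mean ratio was -2.04, with the smallest fall in pair 2 (-1.19). The value carries an uncertainty, because its sums were whole in 0 of 8 libraries, so reads were divided with at least 1 other gene in each. NEP3 (NV2.20490), the identifier next to it, averaged only 0.39 CPM in controls and summed to 7 counts over the shRNA libraries and 35 over the controls. It lay under the control minimum and so could not count as a falling neighbour, although its ratios were -1.33, -0.73, -1.34 and -2.09.

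**Figure D2:**
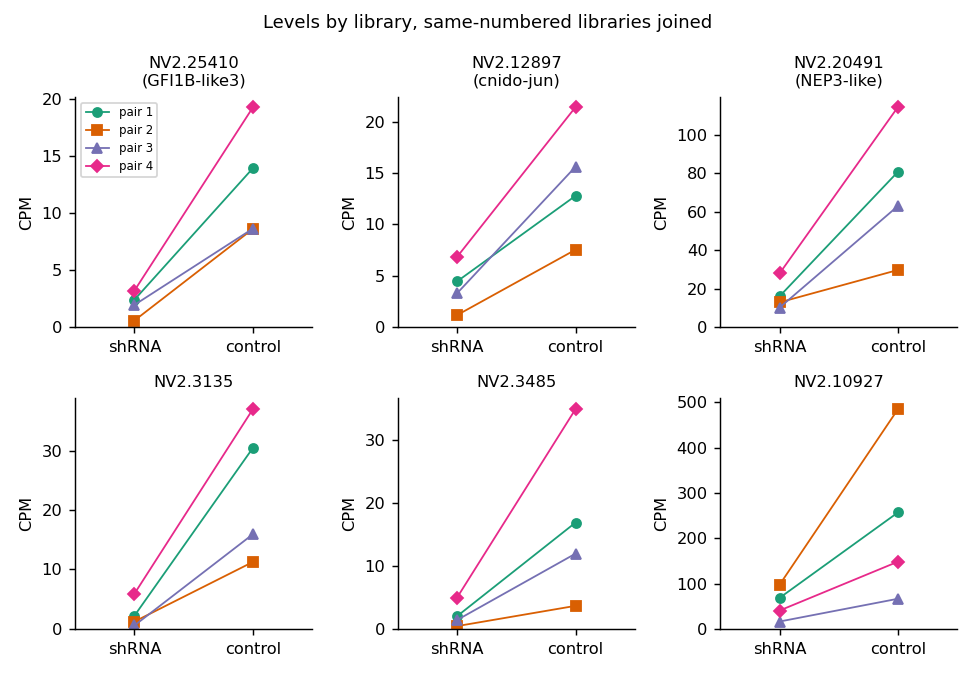
Level in CPM (y axis, starting at 0) of 6 members in the shRNA and the scramble control library of each replicate, joined by lines. Each line slopes up to the control, and replicate 4 is highest in 5 of the panels while NV2.10927 is highest in replicate 2.

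The collection holds 42 genes, of which 38 carry an identifier. Besides the 3 members, 4 fell together with falling neighbours, namely NVE15732, NVE15733, NVE3843 and the capsule gene Ncol, 2 were those the rule left out, 22 did not fall in all pairs, and 7 were under the control minimum. Among the genes that did not fall were the early regulators znf845 (mean ratio 0.05), sox2 (-0.05) and paxA (0.09). The capsule genes differed among themselves: ncol3 had a mean ratio of 0.10, whereas ncol1 (-0.81), ncol4 (-0.78), ggt (-0.52) and Ngal (-0.52) were lower in each pair without reaching the 1.5-fold limit in all. In the fit across all genes without the block, 0 of the 30 tested genes of the collection other than the members and NvfoxE-like were called in either direction. With the block, 9 were lower and 2 higher. The lower genes included ncol1 and ncol4, with log2 fold changes of -0.84 ± 0.12 and -0.80 ± 0.16 (SE) and edgeR adjusted p of 0.0061 and 0.039. The higher genes were coup-like2 and foxL2, both transcription factor genes, with log2 fold changes of 0.83 ± 0.17 and 0.69 ± 0.12 (SE) and edgeR adjusted p of 0.047 and 0.029. Each of these named calls was lost on leaving out at least 1 replicate, although the ratios of each of these genes had the same sign in all 4 pairs. The other lower calls are not followed gene by gene here. With the block, 6, 11, 10 and 5 genes of the collection were called lower without replicates 1 to 4, not necessarily the same genes. The pair ratios were 0.59 to 0.86 for foxL2, 0.56 to 1.49 for coup-like2, -1.21 to -0.47 for ncol1 and -1.46 to -0.41 for ncol4. With the block and 1 replicate left out, the edgeR adjusted p of foxL2 was 0.052 to 0.19, so its call was lost each time, and that of coup-like2 was 0.032 without replicate 2 and 0.091 to 0.17 without each of the others. The ncol1 call was lost without replicate 1 (adjusted p = 0.061), and that of ncol4 without replicate 1 (0.13), replicate 4 (0.15) and replicate 3, where its log2 fold change was -0.58.

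The other 49 members have no name in the sources used here and are given by identifier. The 3 lowest mean ratios belonged to genes under 7 CPM in controls, while others of the 12 lowest, such as NV2.3135 and NV2.3485, lay above the member median of 8.71 CPM. NV2.6162 had 2, 1, 0 and 12.1 counts in shRNA libraries 1 to 4, against 134, 19, 61 and 200 counts in the controls, and a mean ratio of -4.16. NV2.11028 had 3, 1, 0 and 5 counts in the shRNA libraries, against 79, 27, 37 and 113 counts in the controls, and a mean of -3.89. Both genes were thus at or near the limit of 3 counts in 3 of 4 shRNA libraries, where the 2 added counts set the ratio in part. With 5 counts added NV2.6162 had a mean of -3.39, and from deposited TPM it had -3.06, against -3.40 and -3.41 for NV2.3135, which then lay lower of these 2.

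NV2.13049 followed with a mean of -3.71, and its groups overlapped: it had 0.197, 0.107, 0.153 and 1.63 CPM in shRNA libraries 1 to 4, against 6.22, 1.07, 6.73 and 13.8 CPM in the controls. shRNA 4 lay above control 2. The deepest fall of a member with at least 20 CPM in controls was that of NV2.3135, with 2.21, 1.23, 0.575 and 5.91 CPM in the shRNA libraries, against 30.5, 11.3, 15.9 and 37.0 CPM in the controls, and a mean ratio of -3.52. Its groups did not overlap, and the residual level was 7.24%, 10.9%, 3.61% and 16.0% of control in pairs 1 to 4. NV2.23951 and NV2.6826 shared a mean of -3.41, with 18 and 40.1 counts summed over the shRNA libraries against 303 and 531 over the controls.

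NV2.13261 had 9, 0, 0 and 13 counts in shRNA libraries 1 to 4, against 53, 13, 69 and 121 counts in the controls (mean ratio -3.34). NV2.9120 had 0.946, 1.07, 0.499 and 1.27 CPM in the shRNA libraries, against 13.8, 28.8, 1.03 and 10.3 CPM in the controls (mean -3.06). Its shRNA libraries were alike while its controls varied up to 27.8-fold, so its ratio was -4.61 in pair 2 and only -0.96 in pair 3. Of the remaining 4 of the 12 lowest, NV2.6072, NV2.14631 and NV2.4530 had groups that did not overlap, with means of -2.92, -2.89 and -2.81. NV2.3485 had 2.00, 0.442, 1.40 and 4.94 CPM in shRNA libraries, against 16.9, 3.66, 11.9 and 34.8 CPM in controls (mean -2.90), and its groups overlapped although its 4 ratios had an SD of only 0.14.

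Per transcript length, the most abundant member was NV2.10927, with 39.4 ± 17.9 TPM (the deposited abundance corrected for transcript length) in shRNA libraries and 154 ± 78.1 TPM in controls (SD, n = 4 each). The next were NEP3-like (71.6 ± 42.4 TPM in controls), NV2.23281 (62.2 ± 16.8), NV2.11233 (47.9 ± 39.9), NV2.12063 (43.0 ± 11.6) and NV2.25695 (39.0 ± 13.6). Neighbours in this order were closer than 1 SD apart except the first 2, which were closer than the sum of their SDs. Members were of modest abundance in general: the median control level was 6.74 TPM, against 11.0 TPM over all genes at the control minimum. Below the median of those genes lay 35 members, and 1 lay among the highest 10%.

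NV2.10927 had 68.5, 97.6, 16.3 and 40.5 CPM in shRNA libraries 1 to 4, against 257, 486, 66.6 and 149 CPM in the controls. Its groups overlapped, since shRNA 1 and shRNA 2 were above control 3, yet its ratios were -1.91, -2.31, -2.03 and -1.87. NV2.25695 had 31.7, 41.3, 9.54 and 21.1 CPM in the shRNA libraries, against 102, 163, 37.3 and 60.9 CPM in the controls, with the same order of replicates. In NV2.23281 replicate 3 stood below the others in both groups: 27.2, 26.6, 7.40 and 26.6 CPM in shRNA libraries 1 to 4, against 76.7, 73.7, 41.1 and 75.6 CPM in the controls. NV2.11233 had a different order of replicates, with 22.8, 8.67, 31.3 and 46.6 CPM in shRNA libraries, against 55.4, 25.1, 169 and 124 CPM in controls.

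**Figure D3:**
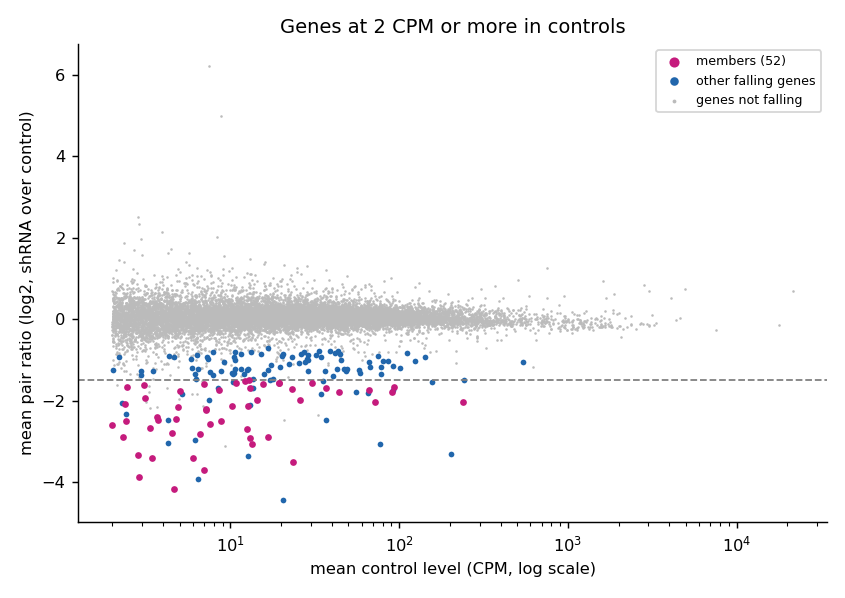
Mean pair ratio (y axis, log2 of shRNA over control) against mean control level (x axis, CPM, log scale) for the 15445 genes at the control minimum, with members, other falling genes and all remaining genes in 3 colours. The dashed line stands at -1.5. Members spread from 2.00 to 239 CPM, and those with the 3 lowest ratios lie under 7 CPM.

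In CPM the control means of members ran from 2.00 to 239 with a median of 8.71, against 22.0 over all genes at the minimum. There were 17 members between 2 and 5 CPM, 24 between 5 and 20, 6 between 20 and 50, and 5 at 50 or more. Members at 50 CPM or more had mean ratios between -2.04 and -1.66. The transcripts of members were 697 to 4007 bases long, with a median of 1926.5 bases against 2461 over all genes at the minimum. A single annotated transcript was the case in 48 of 52, 92.3%, against 71.3%. Sums were whole in none of the libraries for 8 members, 15.4%, against 44.0% of all genes, and in all 8 libraries for 6 members, 11.5%, against 1.84%. The rule used the control level, through its minimum and the added counts, but not length, transcript number or whole sums. None of these features was tested, because genes are no replicates.

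How steady a fall was differed between members. The SD of the 4 pair ratios had a median of 0.58 and ran from 0.10 to 1.56, beside a median of 0.24 over all genes at the minimum. It was under 0.3 in 10 members and 1 or more in 8. The steadiest were NV2.11056 (ratios of -2.06, -2.10, -2.12 and -2.28), NV2.3485 (-3.03, -2.77, -3.02 and -2.79) and NV2.10927. The least steady were NV2.9120, NV2.6162 (-5.41, -2.53, -5.09 and -3.61) and NV2.4676 (-4.01, -1.99, -0.87 and -2.91). Both low counts and a control that stood low in 1 pair occurred among the unsteady genes.

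Controls themselves differed widely in these genes. The highest control was 3.48 times the lowest in the median member, against 2.40 times over all genes at the minimum. The highest control was replicate 4 in 23 members, 44.2%, against 17.1% of all genes, and replicate 3 in 3 members, 5.77%, against 39.1%. The rule used the controls in each ratio and for the minimum, so their spread and order may be shaped by the choice. Members also had lower control levels, with a median of 8.71 CPM against 22.0 over all genes at the minimum. None of these differences was tested. The lowest control was replicate 3 in 27 members, 51.9%, against 34.9% of all genes, and replicate 2 in 22, 42.3%, against 50.7%. Thus 49 of the 52 had their lowest control in one of these pools, 94.2%, against 85.6% of all genes. Of the 27 lowest in control 3, 15 were highest in control 2, and of the 22 lowest in control 2, 16 were highest in control 4. Over all genes the highest control was replicate 2 in 35.0% and replicate 4 in 17.1%. How many of all genes had these combinations was not counted, so nothing particular to the members is read from them. Summed over the 27, the level was 207, 249, 69.7 and 160 CPM in shRNA libraries 1 to 4, against 743, 1097, 267 and 551 CPM in controls. Summed over the 22, it was 98.1, 54.4, 76.0 and 159 CPM in shRNA libraries, against 381, 170 and 440 CPM in controls 1 to 3 and 579 CPM in control 4. In each set the shRNA libraries lay below their own controls in every pair, which the rule fixed by requiring a fall in all 4 pairs. The smallest fall was in the pair of the lowest control in 28 of the 52 members, a relation built into a ratio that has the control below the line.

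The contrast of library prefixes was not used by the rule, and treatment is balanced in it. Counts of the shRNA and control library of a replicate were added, and the sums of replicates 3 and 4 (LA20) were compared with those of replicates 1 and 2 (LA19). Between the prefixes 8 of 20481 genes were higher in LA20, 0.0391%, and 4 lower, 0.0195%, and 0 members were called in either direction (edgeR quasi-likelihood F test with the limits used for the treatment). At an unadjusted p under 0.05, 4 members were higher and 10 lower, which is to be read beside 22.0% higher and 16.9% lower over all genes. DESeq2 called 3 members higher and 9 lower, beside 17.4% and 10.7% of all genes. The median log2 difference was -0.26 over members and 0.02 over all genes tested, with 22 members positive and 30 negative. This median rested on single replicates: it was 0.16 without replicate 3 and -0.92 without replicate 4. Without replicate 1 the test called 7 members higher and 16 lower, beside 27.1% higher and 21.7% lower of all 21194 genes in that fit.

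The members with the largest differences between prefixes were NV2.8353, at 2.31 ± 0.52 (SE) in LA20 minus LA19 with an edgeR adjusted p of 0.070, and NV2.10953, at -2.04 ± 0.76 with an adjusted p of 0.097. NV2.8353 had 1.72 and 3.30 CPM in the LA20 shRNA libraries and 15.9 and 13.8 CPM in the LA20 controls, while it had 0.552 and 0.214 CPM in the LA19 shRNA libraries and 4.54 and 1.15 CPM in the LA19 controls. NV2.12553 ran the same way (1.78 ± 0.57, adjusted p = 0.077) and NV2.9120 the other way (-2.0 ± 0.87, adjusted p = 0.13). All 4 missed the threshold in the main edgeR test and passed it with DESeq2, at adjusted p of 0.00043, 0.022, 0.0125 and 0.0235 for NV2.8353, NV2.10953, NV2.12553 and NV2.9120. With the 8 libraries as samples and treatment as a covariate, NV2.8353 (edgeR adjusted p = 0.0058) and NV2.12553 (0.012) passed. That fit counts the 2 libraries of a replicate as separate samples, although the replicate is the unit. It called 52.3% of all genes, so these values overstate the evidence. Single replicates set the sizes: without replicate 4 the difference was -3.75 for NV2.10953 and -4.18 for NV2.9120, and without replicate 3 it was -1.26 and -1.16.

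Choosing the genes on 3 pairs and reading the remaining pair uses libraries that did not choose. With pair 1 left out the rule gave 54 genes, of which 53 were at least 1.5-fold lower in pair 1, 98.1%, beside 5.48% of all genes at the minimum. For pair 2 it was 48 of 52, 92.3% beside 6.06%. For pair 3 it was 47 of 57, 82.5% beside 5.17%, and for pair 4 it was 57 of 62, 91.9% beside 3.68%. The median ratio in the pair left out was -2.20, -1.96, -1.86 and -1.76 for pairs 1 to 4.

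Most genes chosen on 3 pairs thus also fell in the fourth, and the exceptions numbered 1, 4, 10 and 5. The exceptions in pair 3 included 2 genes of the collection, cnido-fos (0.53) and CALM3-like (NV2.20419, -0.35), a gene named after a calmodulin, which binds calcium. The strongest contrary value was that of NV2.1242, with 4.71 in pair 3 beside a mean of -2.36 in the other pairs. These 3 genes were chosen for naming after their values were seen.

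**Figure D4:**
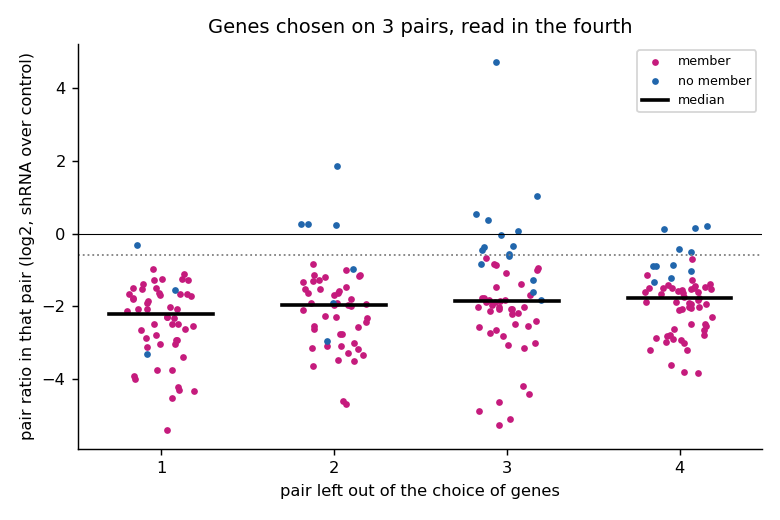
Pair ratio (y axis, log2 of shRNA over control) in the pair that was left out when the genes were chosen (x axis), with members and other genes in separate colours and a bar at the median. The dotted line marks the 1.5-fold limit. The medians lie between -2.20 and -1.76, and pair 3 holds 10 of the 20 genes above the dotted line.

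More than 1 transcript is annotated for 4 members, and in NV2.12063 the 2 transcripts behaved differently. Its transcript 2 (1301 bases) had 376, 359, 58.0 and 165 counts in shRNA libraries 1 to 4, against 1017, 1460, 431 and 803 counts in the controls, a mean ratio of -2.13. Its transcript 1 (1400 bases) had 38.5, 44.3, 62.5 and 49.2 counts in the shRNA libraries, against 41.7, 47.8, 44.9 and 48.4 counts in the controls, a mean ratio of 0.08. The ratios of transcript 2 were -1.76, -1.75, -2.97 and -2.03 in pairs 1 to 4, and those of transcript 1 were -0.43, 0.17, 0.35 and 0.25. Transcript 1 therefore made up 16.9% of the summed counts in shRNA libraries and 4.69% in controls. A whole sum of this gene occurred in a single library, so reads were divided with another gene in the other 7.

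In NV2.24032 both transcripts were lower, with mean ratios of -1.96 for transcript 1 and -1.43 for transcript 2. In NV2.11056 transcript 1 was at 0 in 3 shRNA and 2 control libraries and had 23.4 counts in shRNA 4, against 30.2 and 30.1 counts in controls 1 and 4. Its transcript 2 had ratios of -1.90, -2.10, -2.12 and -3.03 in pairs 1 to 4, so the gene total was steadier than either transcript. In NV2.3135 transcript 2 reached at most 8.38 counts in any library, and the fall was that of transcript 1.

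**Figure D5:**
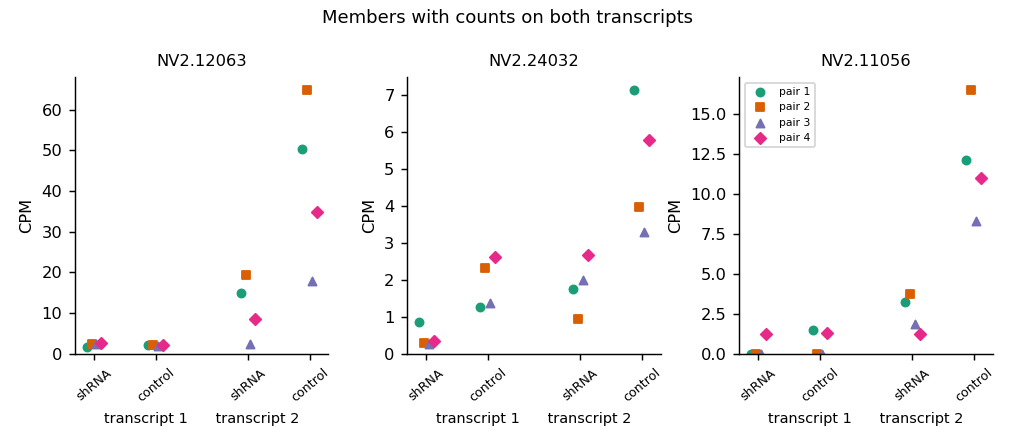
Level in CPM (y axis) of transcript 1 and transcript 2 of 3 members in the shRNA and control libraries, with a symbol for each replicate. In NV2.12063 transcript 1 stays between 1.5 and 2.5 CPM in both groups while transcript 2 is lower in the shRNA libraries.

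Identifier numbers were used as a stand-in for neighbourhood, since no coordinates of this genome build were used here. The members had 338 distinct neighbours within 5 numbers that reached the control minimum. Their mean ratios ran from -0.74 to 1.63 with a median of 0.04, as over all genes at the minimum, and 7 of them averaged at least a 1.5-fold decrease, 2.07%. Genes that fell in all pairs cannot be among these neighbours, and of the 15284 genes that did not, 266 averaged such a decrease, 1.74%. The absence of neighbours falling in all 4 pairs was set by the rule. Neighbours under the control minimum were not seen by it, and 3 of these fell in all pairs: NV2.6161 beside NV2.6162, NV2.12709 beside NV2.12708, and NEP3 beside NEP3-like. NV2.6161 had 21.9 counts over the shRNA libraries against 127 over the controls, and ratios of -1.91, -2.63, -1.99 and -2.24. For 43 members neither kind of neighbour was found.

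The nearest falling gene of any kind lay 7 to 621 numbers away, with a median of 90. It was within 20 numbers for 5 members, as for NV2.11718, which lies 7 numbers from NV2.11725, also a member. It was over 100 numbers away for 25. Along the numbering, 20 members lay between 10001 and 15000, 38.5%, where 19.5% of the genes at the minimum lie. This was the block with the largest share, and the borders of the blocks are arbitrary. The shares were 21.2% against 19.6% for 1 to 5000 and 13.5% against 18.7% for 5001 to 10000. They were 9.62% against 19.7% for 15001 to 20000, 11.5% against 18.8% for 20001 to 25000, and 5.77% against 3.56% for 25001 to 30000. Clustering along the numbering was not tested.

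At the edge of the rule, the values of members and of genes left out were close. Just inside were NV2.11718 (mean -1.5, with -0.84 in pair 2), NV2.17887 (-1.53) and NV2.5232 (-1.56). NV2.17887 averaged 4.34 ± 1.32 CPM with the shRNA, against 12.3 ± 1.48 CPM with the scramble RNA. Just outside were NV2.3697 and NV2.14428 (both -1.48) and NV2.15362 (-1.38). NV2.3697 had ratios between -1.64 and -1.34, a narrower spread than that of NV2.11718.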

How the data were processed

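Polyadenylated RNA of 8 embryo pools was sequenced as 150 bp paired-end reads. The authors ran Salmon on the Nvec200 genome's transcripts, whose version and settings are not given in the sources used. The deposited estimated counts (expected reads per transcript, not whole where a read matches several transcripts) and the deposited TPM values cover 35819 transcripts. The strand setting is likewise not given, so overlapping genes on opposite strands may share reads.

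Counts were summed per gene by the number in the transcript name, and CPM is that sum scaled to a common library total. For the fits, sums were rounded, filtered with filterByExpr and scaled by TMM. edgeR 4.0.16 under R 4.3.3 gave quasi-likelihood F tests with Benjamini-Hochberg adjustment, with calls at an adjusted p of at most 0.05 and a 1.5-fold difference. DESeq2 1.42.0 was an alternative. The treatment contrast chose the members, so their values in it are a description. The fits were also run on simulated counts in which every gene had the same set spread around its mean. That run does not show how they perform with the spread of these libraries. Figures and ratios used Python 3.11.15, pandas 2.3.3 and matplotlib 3.10.9.

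As a check of pairing, deviations from the group mean were correlated across genes. The correlation was 0.65, 0.94, 0.92 and 0.83 between shRNA and control libraries of the same number, 1 to 4. It was 0.64 to 0.82 between other shRNA and control libraries of the same prefix. Each library correlated most with the one of its own number in the other group. The margin was thin for shRNA 1 (0.648, against 0.639 with control 2) and shRNA 4 (0.828, against 0.822 with control 3). Replicate numbers were treated as pairs because the study pairs a knockdown with a control sample. All 4 values exceed the limit of 0.1, but so do those of other libraries of the same prefix. The limit therefore did not test the pairing within a prefix. No 2 libraries agreed within sampling noise.

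The members, the gene lists and the tests were chosen with earlier results of these data known. Named genes were the members with a published name, the 12 of lowest mean ratio, the 6 of highest control TPM, the 3 of least and of most spread, the 3 on each side of the limit of -1.5, the 2 of largest prefix difference each way, and those whose transcripts differed most. The RefSeq table matched 0 identifiers, so no sequence, coordinate or further name is given. Genes of the cnidocyte collection, neighbours and exceptions named beyond this rule were chosen after their values were seen.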

Additional observations from a re-analysis of the deposited data

Results flagged for a closer look

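Among the named members and NvfoxE-like, 90 sets of 4 libraries or pairs were checked for a value far from the other 3, and 7 stood apart. Chance gives about 1 in 20 for independent, normally distributed sets. That rate cannot be set against the 7. The pair ratios come from the same libraries as the CPM values, and genes were named partly for extreme ratios or spread. Of the 7, 3 belonged to NV2.23281, in replicate 3: 7.40 CPM in the shRNA library, where the other shRNA libraries had 26.6 to 27.2 CPM, 41.1 CPM in the control, where the other controls had 73.7 to 76.7 CPM, and a pair ratio of -2.46, where the others were -1.51 to -1.46. In NV2.13049 the shRNA library of replicate 4 had 1.63 CPM and the others 0.107 to 0.197 CPM. In NV2.6162 the same library had 0.616 CPM and the others at most 0.0788 CPM. The pair ratio of NV2.13261 in replicate 3 was -5.26, beside -2.81 to -2.63 in the other pairs. That of NV2.14631 in replicate 3 was -2.02, beside -3.20 to -3.13.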

How the results depend on the processing

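The number of members was 48 to 62 under all 13 alternatives except a control minimum of 5 CPM, which gave 35. Leaving out each replicate gave 52 to 62, but not the same genes. Of the 52 members, 51, 45, 42 and 51 remained without replicates 1 to 4. Counting neighbours under the control minimum gave 49 and neighbours by place in the file 52, both chosen after seeing the data. The median mean ratio was -2.0 from the deposited TPM and -2.21 to -2.05 with each replicate left out. Of 232 alternative mean ratios of named members 5 moved beyond the SD of the pair ratios, all with other added counts or from TPM. The means with a replicate left out say nothing here. Dropping a pair cannot shift a mean by that SD, and the rule required a fall in every pair, so they could not reverse. Of the other alternatives 0 reversed. NV2.11028 had -4.81 with 0.5 counts added, -3.09 with 5 added and -3.22 from TPM.

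With the replicate block the treatment test called 203 genes lower and 40 higher, 49 members, and 9 published genes lower and 2 higher; with replicates 1 to 4 also left out, these were 132, 237, 174 and 127 lower, 13, 34, 35 and 23 higher, 39, 47, 48 and 42 members, 6, 11, 10 and 5 published genes lower, and 0, 1, 0 and 0 higher. DESeq2 called 48 and 8, 32 members and 2 published genes lower; with the block 270 and 66, 52 members, and 11 lower and 2 higher. Without the block, each replicate left out gave 0.

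Between prefixes the main fit gave 8 genes higher and 4 lower. The 8 libraries with treatment as a covariate gave 5108 and 4835 (4 and 13 members), but that fit counts both libraries of a replicate as separate samples. The controls alone gave 0 and 0 (3632 and 2613 at an unadjusted edgeR p under 0.05). No filter gave 2194 and 610 (2 and 3 members), and DESeq2 gave 3563 and 2190 (3 and 9 members). Leaving out each replicate gave 11 to 5739 higher and 4 to 4596 lower, with 0 to 7 and 0 to 16 members. It was replicate 1 whose removal gave 5739 and 4596, replicate 3 gave 367 and 29, and replicate 4 gave 1652 and 100, each leaving 1 sum on 1 side that is assumed to vary like the others. The cause was not tested. Depth limits the members of lowest abundance, of which 4 were at 0 in shRNA 3 and 1 in shRNA 2.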
